A study of Mus musculus with 4 samples.

Results

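Translation initiation and elongation factors were examined in tumour-associated macrophages sorted from mouse liver tumours. The factors were chosen by gene symbol: rows of the deposited RPKM table (read number divided by gene length and library size) that begin with Eif1 to Eif6 or with Eef1 or Eef2. The pattern matched 68 rows. The 4 eIF2 kinase genes, 1 Y-linked copy and 2 rows at 0 in every library (Eef1a2, the eEF1A copy of muscle and neurons, and Eif4e1b, an oocyte cap-binding protein) were left out. This gave 61 member genes of the 24784 in the table. The rule uses symbols and a level above 0, not a difference between groups, but the set was picked for description with earlier results of these data known.

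The control group and the OXCT1mKO group had 2 libraries each, and the latter label refers to Oxct1, the mitochondrial enzyme that activates acetoacetate for ketone body breakdown. All 4 came from male mice aged 6 to 8 weeks, and all were given Hepa 1-6 cells, a mouse hepatoma line, so no library comes from a liver without tumour. Polyadenylated RNA was sequenced. The alleles, the driver of any deletion, the sort antibodies and whether each library is 1 mouse are not stated, so p-values measure the spread between these libraries, which may be technical.

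The whole table added up to 377575 and 355951 RPKM in the control libraries, and to 327811 and 325034 in OXCT1mKO. Read depth is not given, and ratios of values up to 0.05 RPKM placed the relative depths between 0.911 and 1.03. Globin rows held 8.81% of the sum in control 1 and 0.132% to 0.327% in the other libraries. Oxct1 itself was 19.3 and 20.3 RPKM in control and 14.7 and 15.4 RPKM in OXCT1mKO. All 10 macrophage markers were above 0 (5 rose and Lyz2 fell, from 688 and 744 to 8.76 and 6.52 RPKM), Csf1r (28.8 to 45.8 RPKM in control, 115 to 128 in OXCT1mKO) and Adgre1 among them. The sorted material was not free of other transcripts: markers of hepatocytes, epithelium, endothelium and T cells were also detected.

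Translation begins when a complex of eIF2, GTP and the initiator tRNA joins the small ribosomal subunit together with eIF1, eIF1A, eIF3 and eIF5. The eIF4F complex, made of the cap-binding protein eIF4E, the scaffold eIF4G and the helicase eIF4A, brings the mRNA, and 4E-BP proteins hold eIF4E back. eIF5B then joins the large subunit, eEF1 delivers each aminoacyl-tRNA, and eEF2 moves the ribosome along. In macrophages, as in other cells, eIF2 and eIF4E are main points of control.

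The promoters of the member genes are shown first, with motifs that were chosen after the values had been seen. A RefSeq promoter window on GRCm38.p6, 250 bases before to 50 bases after the annotated start, was found for 47 of the 61 genes, 6 of them with several starts. The letters CGGAAG, the core that ETS-family factors bind, were present on either strand in 28 of 47 member genes (59.6%), against 34.7% of the 9578 tested genes with a window and 18.8% of all 27025 genes in the RefSeq table. The E-box CACGTG, which reads the same on both strands, was present in 14 of 47 (29.8%), against 11.7% of tested genes and 8.1% of all genes. CCAAT, read on both strands, was in 16 (34.0%), against 42.6% of tested genes. A run of at least 8 pyrimidines within 25 bases of the start, as in mRNAs with a terminal oligopyrimidine tract, was present in 13 (27.7%), close to the 23.3% of tested genes. The following stretches show CGGAAG, or its reverse complement CTTCCG, in capitals. They come from called genes that hold the match and have a single annotated start, the 5 with the largest fall and the 1 that rose, and show where the match sits.
Eef1b2: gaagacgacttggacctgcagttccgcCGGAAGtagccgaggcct
Eif2d: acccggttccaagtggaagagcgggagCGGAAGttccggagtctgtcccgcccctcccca
Eif1ax: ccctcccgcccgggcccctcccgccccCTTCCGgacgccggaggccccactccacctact
Eif3m: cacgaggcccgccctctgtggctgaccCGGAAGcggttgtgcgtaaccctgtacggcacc
Eif3g: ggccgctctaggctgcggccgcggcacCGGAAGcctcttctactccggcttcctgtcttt
Eif4ebp2: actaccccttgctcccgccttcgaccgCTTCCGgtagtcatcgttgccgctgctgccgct

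These stretches lie at chr1:63176806-63176850 (plus strand), chr1:131153122-131153181 (plus), chrX:159371939-159371998 (plus), chr2:105017049-105017108 (minus), chr9:20898601-20898660 (minus) and chr10:61452761-61452820 (minus) of GRCm38.p6. In Eef1b2 the match begins at base 3 of the annotated transcript. In Eif3g, Eif3m and Eif2d it begins 43, 54 and 58 bases before the start, and in Eif4ebp2 and Eif1ax 124 and 212 bases before it. The match did not go with the direction of change: it was present in 12 of 22 genes that fell (54.5%), 13 of 22 that did not pass the test (59.1%) and both of the genes with a window that rose. CACGTG was in 3 of the 22 that fell and 10 of the 22 that did not pass. A match of letters is a description and does not show that a factor binds there.

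The comparison asked how the translation factor genes differed between control and OXCT1mKO. Most had lower values in OXCT1mKO, the strongest falls reaching about 0.50 of the control mean. Falls were called among the eIF2, eIF2B, eIF3 and eEF1 genes. Among the 11 genes of eIF4F, eIF4B and eIF4H 2 rose and 0 fell, although 9 had values below 0, and the difference between role groups was not tested. On the log2(RPKM + 1) scale, 60 of the 61 genes had a mean of at least 1 RPKM and were tested with limma. With Benjamini-Hochberg adjustment over all 12523 tested genes, 31 of 60 fell and 3 rose at an adjusted p under 0.05. Over all tested genes 16.4% fell and 16.4% rose, 32.8% in all. The median log2 fold change was -0.35 for the 60 genes and 0.00 for all tested genes. Both OXCT1mKO libraries lay below both controls in 49 of the 60 (37.0% of all tested genes) and above them in 4 (37.6% of all tested genes). Eif3j1 and Eif3j2 are near-identical copies that share reads, so the 31 falls include 1 signal counted as 2 rows.

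**Figure D1:**
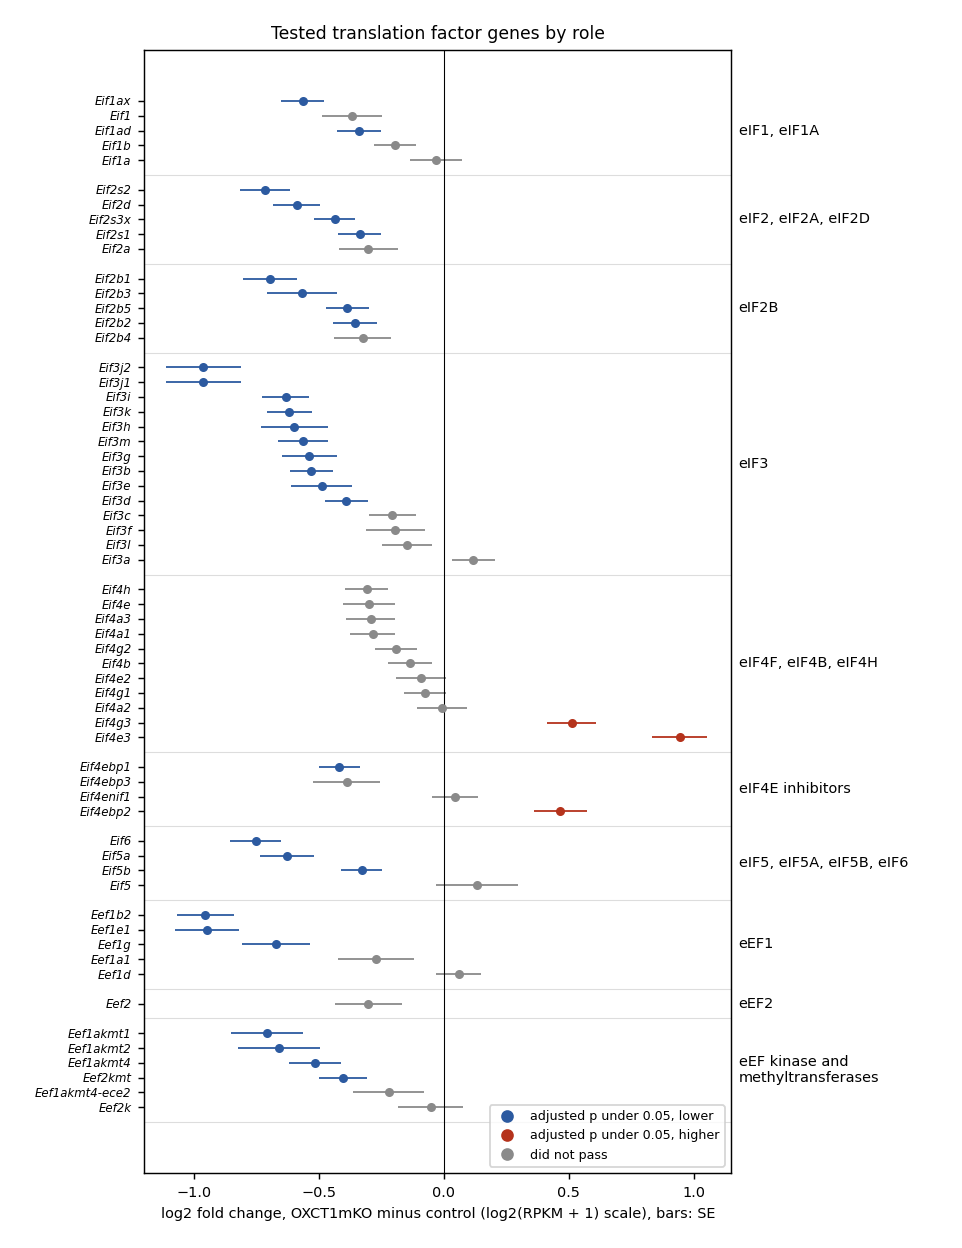
Log2 fold change (OXCT1mKO minus control, log2(RPKM + 1) scale) of the 60 tested translation factor genes, grouped by role, with SE bars from limma, n = 2 libraries per group. The 31 genes that fell lie left of 0 in blue, and the 3 that rose, Eif4e3, Eif4g3 and Eif4ebp2, lie right of 0 in red.

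The calls rest on the agreement of the OXCT1mKO pair. Without OXCT1mKO 1 or OXCT1mKO 2 limma called 0 of the 60, with 25 and 27 at an unadjusted p under 0.05, and all 34 genes kept their direction. Those fits take their spread from the control pair alone. In the other alternatives, which keep both OXCT1mKO libraries, 19 of the 34 were called each time they were tested. Without control 1 and without control 2, 25 and 28 were called. With each library scaled to the same RPKM sum without globin, 22 fell and 3 rose, and over all genes 2718 rose and 1479 fell, in place of 2058 and 2052. Falls also went with transcript length. With summed exon length under 3000 bases, 18 of 26 member genes fell, and with 3000 or more 13 of 33 did. Over all tested genes the shares were 28.2% and 10.8%. What length contributes to the falls was not tested.

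Markers of other cell types and of cycling cells also differed between the groups, where 16.4% of all tested genes fell and 16.4% rose. Of 6 markers of cycling cells, 5 fell, and their summed level was 92.1 to 102 RPKM in control and 55.1 to 56.1 RPKM in OXCT1mKO. Of 4 tested hepatoma markers 3 fell (summed 138 to 167 against 53.5 to 62.5 RPKM), and of 7 T cell markers 4 fell (131 to 211 against 42.8 to 75.5 RPKM). Of 10 Kupffer cell markers 9 rose (50.6 to 50.8 against 308 to 512 RPKM), and of 7 endothelial markers 5 rose (803 to 929 against 1307 to 1455 RPKM). Of hepatocyte markers 3 of 10 rose and 1 fell (508 to 779 RPKM summed over the 4 libraries). Of 5 B cell markers (15.2 and 65.6 against 35.3 and 38.0 RPKM) and 5 erythroid markers (24384 and 846 against 330 and 309 RPKM) limma called 0, with 0 at an unadjusted p under 0.05. The erythroid sum was highest in control 1. Of 5 neutrophil markers 1 fell (155 and 1255 against 568 and 385 RPKM), and of 6 epithelial markers 1 rose and 1 fell (721 and 1114 against 648 and 581 RPKM), with the controls far apart in both lists. None of the listed markers was at 0 in all libraries. Their part in the translation factor values was not tested, and in sorted bulk samples fewer cells of a type cannot be told from less RNA per cell.

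Summed over the 61 genes, the factors took 8140 and 8591 RPKM in control and 6211 and 6729 in OXCT1mKO. As a share of the RPKM sum without globin this was 2.36% and 2.42% against 1.90% and 2.07%. A single gene, Eef1a1, held 36.8% and 38.3% of the factor sum in control and 39.6% and 40.8% in OXCT1mKO. With Eef1a1 and Eef2 left out, the share of the library was 1.19% and 1.20% against 0.909% and 0.947%, so the lower share was present without the pair of most abundant genes.

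The start codon is found by eIF1 and eIF1A. Eif1 was 272 and 295 RPKM in control and 237 and 203 RPKM in OXCT1mKO. The groups did not overlap, but the difference of -0.37 ± 0.12 (log2, SE) missed the threshold (limma adjusted p 0.0742). Of the eIF1A genes, Eif1ax on chromosome X fell from 18.5 ± 0.53 to 12.2 ± 0.36 RPKM (SD, n = 2), a log2 fold change of -0.57 ± 0.09. Eif1a, an autosomal copy, was 30.5 and 35.2 RPKM in control and 31.3 and 32.8 RPKM in OXCT1mKO, which overlap. The ratio of Eif1a to Eif1ax was thus 1.68 and 1.86 in control and 2.52 and 2.74 in OXCT1mKO. Eif1ad, a relative of eIF1A that acts in ribosome assembly, fell by 0.34 ± 0.09 on the log2 scale, and Eif1b did not pass (-0.20 ± 0.08). Exons of a gene on the other strand overlap 15.3% of the exon bases of Eif1ad.

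The initiator tRNA is carried by eIF2, a trimer. All 3 of its subunit genes among the members fell, Eif2s1 with a call close to the threshold. Over all tested genes 16.4% fell. Eif2s3y, the Y-linked copy of the gamma subunit gene that the rule left out, was called higher in OXCT1mKO by limma. The Y-linked genes Ddx3y, Kdm5d and Uty were called higher too, so the rise was not particular to the eIF2 gene. Its cause was not tested. Eif2s1, the alpha subunit that stress kinases phosphorylate, was 21.9 and 21.6 RPKM in control and 16.6 and 17.4 RPKM in OXCT1mKO. Eif2s2, the beta subunit, was 43.8 and 42.4 RPKM in control and 24.2 and 27.6 RPKM in OXCT1mKO. Eif2s3x, the gamma subunit that binds GTP and the tRNA, was 34.3 and 34.4 RPKM in control and 25.001 and 25.2 RPKM in OXCT1mKO. In each of the 3 genes both OXCT1mKO libraries lay below both controls (37.0% of all tested genes), and the values within a group lay close together. The log2 fold changes were -0.34 ± 0.08, -0.72 ± 0.10 and -0.44 ± 0.08, with limma adjusted p of 0.0398, 0.0136 and 0.0209. The Eif2s1 call was lost in limma with no filter, no variance trend, equal RPKM sums, without control 1 and without control 2 (adjusted p 0.0512 to 0.0894), which leaves 2 of 3. The replicate block lost the Eif2s1 call as well. The beta subunit gene, at 2.00 and 1.97 times the alpha subunit gene in control, was nearer to it in OXCT1mKO. The highest of the trimer was 1.502 and 1.59 times the lowest in OXCT1mKO. Eif2d, which loads tRNA without eIF2, fell from 17.5 ± 1.05 to 11.3 ± 0.32 RPKM. Eif2a, another tRNA-binding factor, was 20.8 and 24.6 against 19.003 and 17.4 RPKM and did not pass (limma adjusted p 0.108).

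After each round eIF2 is recharged with GTP by eIF2B, and 4 of its 5 subunit genes fell (16.4% of all tested genes did). Eif2b1, the alpha subunit, was 28.5 and 25.5 RPKM in control and 15.3 and 17.2 RPKM in OXCT1mKO (-0.70 ± 0.11 in log2, limma adjusted p 0.0155). Eif2b5, the catalytic epsilon subunit, was 17.1 and 16.9 RPKM in control and 12.9 and 12.6 RPKM in OXCT1mKO (-0.39 ± 0.08). Eif2b2 (-0.36 ± 0.09) and Eif2b3 (-0.57 ± 0.14) fell too, and Eif2b4 did not pass (-0.33 ± 0.11, limma adjusted p 0.086). In all 5 both OXCT1mKO libraries lay below both controls (37.0% of all tested genes). With equal RPKM sums without globin limma called Eif2b1 alone, since Eif2b2 (adjusted p 0.0707), Eif2b3 (adjusted p 0.0562) and Eif2b5 (adjusted p 0.0562) missed the threshold. Without control 1 the calls of Eif2b3 and Eif2b5 were lost, and without control 2 that of Eif2b2. The replicate block left Eif2b1 as the only called gene of the complex. Eif2b3 was the lowest of the complex in every library, 3.38 ± 0.52 RPKM in control and 1.95 ± 0.10 RPKM in OXCT1mKO (SD, n = 2).

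The largest initiation factor, eIF3, bridges the mRNA and the small subunit. Of its 14 rows 10 fell, while 16.4% of all tested genes did. Eif3h, a subunit of the octamer core, was 243 and 292 RPKM in control and 165 and 186 RPKM in OXCT1mKO. Eif3k, another octamer subunit, was 139.9 and 132 RPKM in control and 85.9 and 90.1 RPKM in OXCT1mKO (-0.62 ± 0.09, limma adjusted p 0.0143). Both genes fell with no overlap between groups (both OXCT1mKO libraries lay below both controls in 37.0% of all tested genes). Eif3a, the largest subunit and the scaffold of the complex, was 49.0 and 51.5 RPKM in control and 53.5 and 55.7 RPKM in OXCT1mKO. It was the single eIF3 gene with higher values in both OXCT1mKO libraries, and the difference of 0.12 ± 0.09 (log2) missed the threshold (limma adjusted p 0.323).

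Among the 8 octamer genes 4 fell (Eif3e, Eif3h, Eif3k and Eif3m) and 4 did not pass (Eif3a, Eif3c, Eif3f and Eif3l), with a median log2 fold change of -0.35. All 6 rows outside the octamer fell (16.4% of all tested genes did), with a median of -0.59 that counts the shared eIF3j signal as 2 rows. They were Eif3b (-0.53 ± 0.09), the scaffold of the peripheral module, Eif3i (-0.63 ± 0.09) and Eif3g (-0.54 ± 0.11), its partners, Eif3d (-0.39 ± 0.09), which can bind the cap, and both rows of eIF3j, which loosely joins the complex. With equal RPKM sums without globin the calls of Eif3d (limma adjusted p 0.0638) and Eif3e (limma adjusted p 0.0566) were lost. Eif3d also lost its call without control 1, Eif3e without control 2, and Eif3e, Eif3g and Eif3h with no filter. The replicate block lost the call of Eif3d as well. Exons of a gene on the other strand overlap 43.3% of the exon bases of Eif3d. The difference between octamer and other subunits was not tested.

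The eIF3j rows, Eef1b2 and Eef1e1 had the lowest log2 fold changes of the 60 genes, within their SE of each other. Eif3j1 was 28.0 and 27.2 RPKM in control and 15.7 and 11.8 RPKM in OXCT1mKO (-0.96 ± 0.15 in log2, limma adjusted p 0.0155). The OXCT1mKO libraries differed from each other more than in most members, yet both lay below both controls. The ratio of Eif3j1 to Eif3j2 was 0.998 in all 4 libraries and varied by only 0.00403%, so the 2 rows hold the same reads and give 1 measurement. Eif3j1 spans 122028546 to 122056598 on the plus strand of chromosome 2 (GRCm38), where exons of other genes overlap 20.2% of its exon bases, mostly on the other strand. Counting by strand is not stated, so reads of the other genes cannot be set apart.

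**Figure D2:**
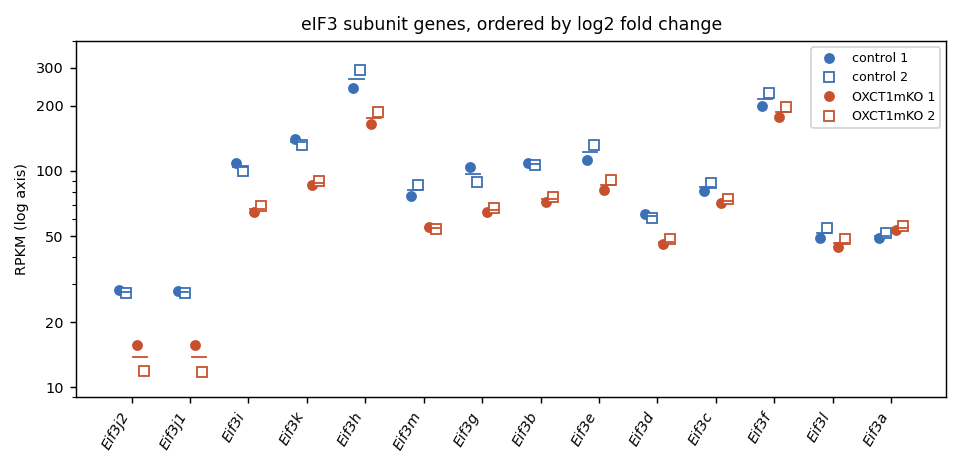
RPKM (log axis) of the 14 eIF3 rows in each library, ordered by log2 fold change, with a line at the mean of the 2 libraries of a group. The gap between control and OXCT1mKO is widest at left for the eIF3j rows (27.6 against 13.8 RPKM for Eif3j1) and turns over for Eif3a at right, where OXCT1mKO is the higher.

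The cap-binding and helicase genes bring the mRNA to the ribosome. Of the 11 tested genes of eIF4F, eIF4B and eIF4H, 0 fell, 2 rose and 9 did not pass (limma, adjusted p under 0.05). Over all tested genes 16.4% fell and 16.4% rose, so the 2 rises (18.2%) lie near the share of all genes. At an unadjusted p under 0.05, 6 of the 11 passed, Eif4h, Eif4a1, Eif4a3 and Eif4e with lower values. Eif4e, the cap-binding protein, was 11.4 and 12.5 RPKM in control and 9.06 and 10.006 RPKM in OXCT1mKO (-0.30 ± 0.10, limma adjusted p 0.0843). Eif4g1, the main scaffold, was 57.0 and 56.7 RPKM in control and 52.6 and 55.2 RPKM in OXCT1mKO (-0.08 ± 0.08). Eif4a1, the abundant helicase, was 128 and 134 RPKM in control and 105 and 109.8 RPKM in OXCT1mKO (-0.29 ± 0.09, limma adjusted p 0.0654). In all 3 the groups did not overlap. Eif4a2, the second helicase, overlapped between groups (-0.01 ± 0.10, and 0.09 with equal RPKM sums without globin). Eif4b, which stimulates the helicase, was 114 ± 4.73 and 104 ± 0.92 RPKM (SD, n = 2; limma adjusted p 0.274), and Eif4h missed the threshold (limma adjusted p 0.0501). Among genes with a mean of at least 5 RPKM, Eif4h passed with a lower value (limma adjusted p 0.0451). Of the 11 genes 9 had a log2 fold change below 0. In 7 both OXCT1mKO libraries lay below both controls (37.0% of all tested genes).

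Eif4e3 and Eif4g3 were the 2 that rose. Eif4e3, a divergent cap-binding relative of eIF4E, was 5.52 and 5.57 RPKM in control and 12.5 and 10.8 RPKM in OXCT1mKO. This log2 fold change, 0.94 ± 0.11, was the largest rise of the 60 genes (limma adjusted p 0.0127). It spans 99625135 to 99666771 on the minus strand of chromosome 6, and 14.8% of its exon bases are shared with another gene on that strand. Eif4g3, a scaffold related to eIF4G1, was 13.8 and 15.3 RPKM in control and 21.6 and 20.7 RPKM in OXCT1mKO (0.51 ± 0.10, limma adjusted p 0.0222). It lies at 137993022 to 138208508 on the plus strand of chromosome 4. Both rises had separate groups and were called under each alternative that kept all 4 libraries.

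Of the 4 tested genes that restrain eIF4E, 1 fell and 1 rose (25% each), while 16.4% of all tested genes fell and 16.4% rose. Eif4ebp1, the 4E-BP that mTORC1 phosphorylates, was 61.3 and 62.9 RPKM in control and 46.0 and 46.4 RPKM in OXCT1mKO (-0.42 ± 0.08 in log2, limma adjusted p 0.0231). Eif4ebp2, its close relative, was 16.5 and 17.0 RPKM in control and 21.8 and 25.3 RPKM in OXCT1mKO (0.47 ± 0.11, limma adjusted p 0.0321). The first fell and the second rose, each with separate groups. The call of Eif4ebp2 was lost in limma without control 1 (adjusted p 0.0668), without control 2 (adjusted p 0.0508) and with no filter on low values (adjusted p 0.0573). Eif4ebp3 did not pass (-0.39 ± 0.13, limma adjusted p 0.082, and 0.0375 without control 2), and 67.3% of its exon bases are shared with a readthrough gene. Eif4enif1, which carries eIF4E into the nucleus, was 11.4 ± 0.46 and 11.8 ± 0.48 RPKM.

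Ratios of related genes within a library do not depend on how it is scaled. The ratio of Eif4ebp1 to Eif4ebp2 was 3.72 and 3.70 in control and 2.11 and 1.84 in OXCT1mKO. The ratio of Eif4e to Eif4e3 was 2.07 and 2.24 in control and 0.728 and 0.928 in OXCT1mKO, so Eif4e was the more abundant per length in the controls and Eif4e3 in OXCT1mKO. Eif4g1 stood at 4.14 and 3.70 times Eif4g3 in control and at 2.43 and 2.67 times in OXCT1mKO. In these 3 pairs the groups did not overlap. For Eif4ebp1 against Eif4e the ratio was 5.37 and 5.03 in control and 5.08 and 4.64 in OXCT1mKO, which overlap. Such ratios are given as a description with no test, because with 2 libraries a group no exact permutation test can pass.

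**Figure D3:**
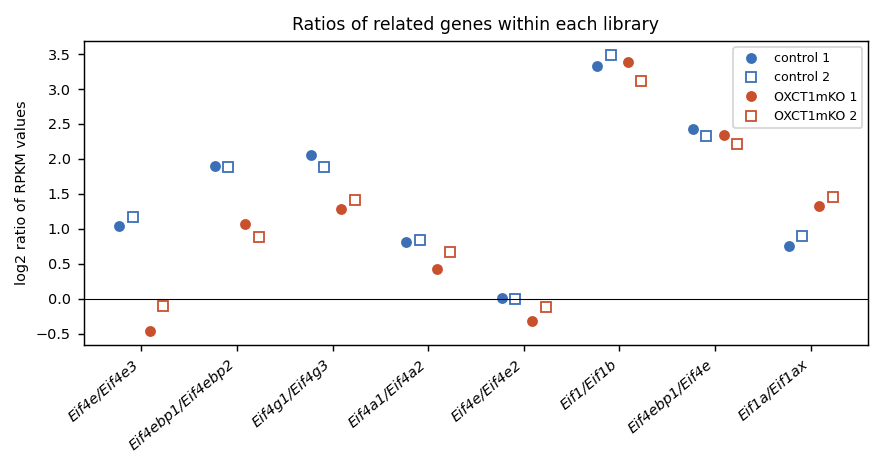
Log2 ratio of the RPKM values of 8 pairs of related genes in each of the 4 libraries. The ratio of Eif4e to Eif4e3 was above 0 in both controls and below 0 in both OXCT1mKO libraries, and that of Eif4ebp1 to Eif4ebp2 was 1.90 and 1.89 in the controls and 1.08 and 0.88 in OXCT1mKO.

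Of the 4 tested genes of eIF5, eIF5A, eIF5B and eIF6, 3 fell, while 16.4% of all tested genes did. Eif6, which keeps the large subunit from joining too early, was 84.7 and 94.8 RPKM in control and 50.9 and 54.6 RPKM in OXCT1mKO (-0.75 ± 0.10, limma adjusted p 0.013). Eif5a, the hypusine-bearing factor that helps ribosomes through difficult peptide bonds, was 299 and 263 RPKM in control and 182 and 180.4 RPKM in OXCT1mKO (-0.63 ± 0.11, limma adjusted p 0.018). Eif5b, the GTPase of subunit joining, was 19.8 and 19.6 RPKM in control and 15.5 and 15.4 RPKM in OXCT1mKO (-0.33 ± 0.08). All 3 had separate groups (both OXCT1mKO libraries lay below both controls in 37.0% of all tested genes). The Eif5b call was lost in limma with no filter, no variance trend, equal RPKM sums, without control 1 and without control 2 (adjusted p 0.051 to 0.0894), which leaves 2 of 4. The replicate block lost the Eif5b call as well, and exons of a gene on the other strand overlap 16.8% of the exon bases of Eif5b. Eif5, the GTPase activator of eIF2, was 42.6 and 57.5 RPKM in control and 57.0 and 51.7 RPKM in OXCT1mKO. Its controls lay farther apart than the groups. Eif5a2, the second eIF5A gene, was under the minimum level and not tested, at 0.367 and 0.409 RPKM in control and 0.913 and 0.607 RPKM in OXCT1mKO.

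In elongation, 3 of the 5 genes with eEF1 names fell, while 16.4% of all tested genes did. Eef1b2, the eEF1B alpha subunit that recharges eEF1A, was 577 and 611 RPKM in control and 288 and 324 RPKM in OXCT1mKO. This log2 fold change, -0.96 ± 0.11 (limma adjusted p 0.0127), was close to that of Eef1e1, and with a pseudocount of 0.1 Eef1e1 was the lower (-0.99 against -0.96). It spans 63176825 to 63180486 on the plus strand of chromosome 1. Eef1g, the gamma subunit, was 231 and 278 RPKM in control and 149 and 169 RPKM in OXCT1mKO (-0.67 ± 0.14, limma adjusted p 0.0249). Eef1e1, which sits in the multi-tRNA synthetase complex, was 35.8 and 28.9 RPKM in control and 15.8 and 16.6 RPKM in OXCT1mKO (-0.95 ± 0.13, limma adjusted p 0.013). The groups were separate in all 3 (both OXCT1mKO libraries lay below both controls in 37.0% of all tested genes). With no filter on low values the call of Eef1g was lost. Eef1d, the delta subunit, was 19.5 and 17.9 RPKM in control and 19.2 and 19.7 RPKM in OXCT1mKO, which overlap.

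The carrier Eef1a1 had the highest level of all members, 2998 and 3289 RPKM in control and 2462 and 2746 RPKM in OXCT1mKO. The groups did not overlap, but the difference of -0.27 ± 0.15 (log2) missed the threshold (limma adjusted p 0.214). Eef2, the translocase, was 1039 and 1029 RPKM in control and 773 and 909 RPKM in OXCT1mKO (-0.30 ± 0.13, limma adjusted p 0.138). The ratio of means was 0.828 for Eef1a1 and 0.813 for Eef2, against 0.516 for Eef1b2. The difference between these genes was not tested. Eef1a1 has many processed copies in the genome, and how reads that match several places were counted is not stated.

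**Figure D4:**
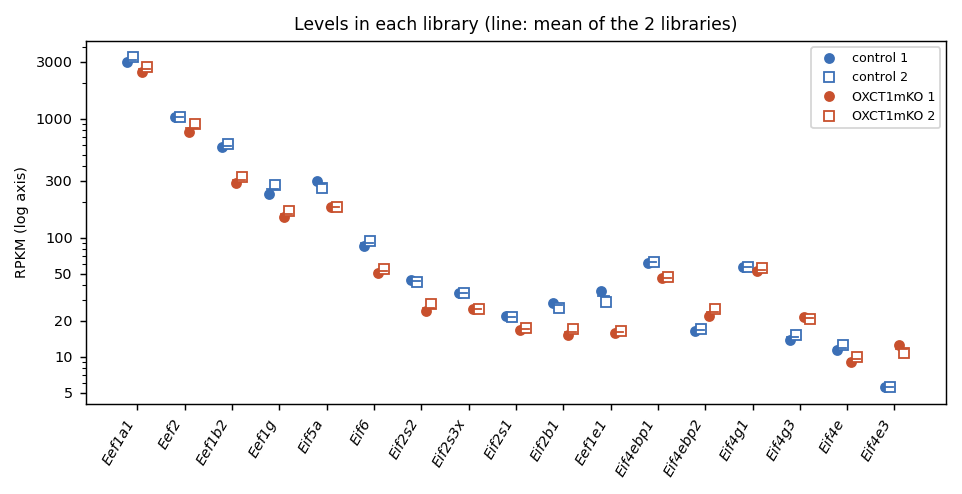
RPKM (log axis) of 17 translation factor genes in each library, with a line at the mean of the 2 libraries of a group. From Eef1a1 through Eef1e1 and at Eif4ebp1, Eif4g1 and Eif4e both OXCT1mKO libraries lie below both controls, and at Eif4ebp2, Eif4g3 and Eif4e3 they lie above.

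Enzymes that modify the elongation factors were low in level. Eef2k, the kinase that stops eEF2, was 1.92 and 2.11 RPKM in control and 1.80 and 2.02 RPKM in OXCT1mKO, which overlap (-0.05 ± 0.13). Of the methyltransferases of eEF1A and eEF2, 4 of 5 rows fell: Eef1akmt1 (-0.71 ± 0.14), Eef1akmt2 (-0.66 ± 0.16), Eef1akmt4 (-0.52 ± 0.10) and Eef2kmt (-0.40 ± 0.10). Over all tested genes 16.4% fell. Of the 4 calls, only that of Eef1akmt4 was kept in every alternative with both OXCT1mKO libraries. The readthrough row Eef1akmt4-ece2 did not pass, and exons of other genes overlap 31.7% of Eef1akmt4 and 23.0% of Eef2kmt.

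Other parts of the translation apparatus were counted from lists of related genes. Over all tested genes 16.4% fell and 16.4% rose, and no difference of a list from these shares was tested. Cytosolic ribosomal proteins had 67 of 76 genes lower and 0 higher, with a median log2 fold change of -0.77. Rps12 (-1.08 ± 0.10), Rpl27a (-1.03 ± 0.10) and Rpl21 (-0.99 ± 0.10), proteins of the small and large subunit, were named by the smallest p. Of 7 tested genes of termination and recycling 4 fell, among them Denr (-0.79 ± 0.10), which strips tRNA from used subunits, the ribosome rescue factor Pelo (-0.43 ± 0.11) and Abce1 (-0.31 ± 0.08), which splits ribosomes. Of 9 mitochondrial translation factors 3 fell, the initiation factor Mtif3 (-0.81 ± 0.09) and the elongation factors Tsfm (-0.79 ± 0.09) and Tufm (-0.73 ± 0.09). Of 5 poly(A)-binding proteins and partners, Pabpc4 (-0.54 ± 0.09) and Paip2 (-0.40 ± 0.09) fell. Of 5 genes of selenocysteine incorporation, the kinase Pstk fell (-0.68 ± 0.17). With equal RPKM sums without globin limma lost the calls of Pelo, Abce1, Paip2 and Pstk. Abce1 also lost its call with no filter, no variance trend, the replicate block, without control 1 and without control 2. Pelo lost it with no filter, no variance trend and without control 2, and Pstk with no filter and without control 1.

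Upstream regulators were counted against the 32.8% of all tested genes called, and no difference from that share was tested. Of 8 eIF2 kinase and phosphatase genes 0 fell and 1 rose, Impact, an inhibitor of the kinase Gcn2, from 5.61 ± 0.13 to 8.81 ± 0.56 RPKM (0.57 ± 0.10, limma adjusted p 0.0194). Both OXCT1mKO libraries lay above both controls in 5 of the 8 (37.6% of all tested genes), with a median log2 fold change of 0.23. Of 15 genes of mTORC1, the S6 kinases and eIF4E control, Mknk1, a kinase of eIF4E, rose from 8.56 ± 0.57 to 16.2 ± 0.95 RPKM (0.85 ± 0.10, limma adjusted p 0.0127). Akt1s1, the mTORC1 inhibitor PRAS40, fell from 19.3 ± 0.58 to 13.8 ± 0.47 RPKM. Of the 15, 7 had both OXCT1mKO libraries above both controls and 4 had them below (37.6% and 37.0% of all tested genes). Enzymes of hypusine and diphthamide, the modified residues of eIF5A and eEF2, had 0 of 9 called by limma, with 3 at an unadjusted p under 0.05 and a median of -0.28. Of 11 factor genes listed as having terminal oligopyrimidine transcripts, 5 fell (Eef1b2, Eef1g, Eif2s3x, Eif3e and Eif3h) and 6 did not pass, with a median of -0.30.

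**Figure D5:**
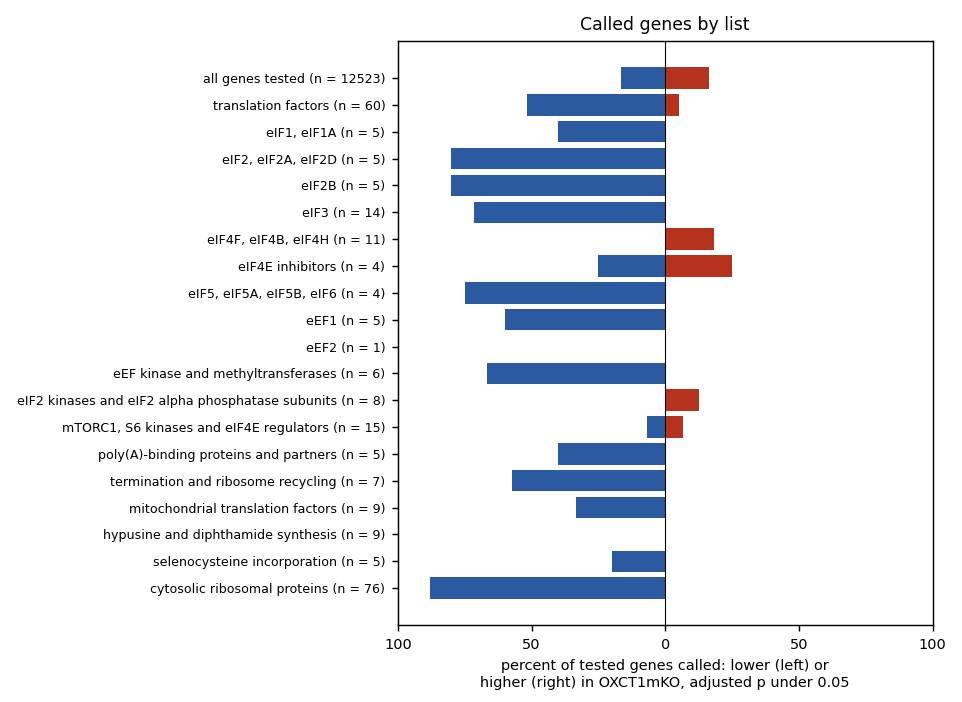
Percent of tested genes with an adjusted p under 0.05 in limma, lower (left, blue) and higher (right, red) in OXCT1mKO, for all tested genes, the translation factors, their role groups and related lists, with the number of tested genes. All genes tested have 16.4% on each side, and the translation factors 51.7% lower and 5.0% higher.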

How the data were processed

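The authors deposited 1 table of RPKM values per gene for the 4 libraries. The submitters' processing notes name STAR 2.10, R 4.0.5 and the mm10 build. The annotation, the counter, the strand setting and the library size behind the RPKM values are not stated, and depth per library is unknown. The protocol text in the labels also mentions a microarray, while the series is typed as sequencing.

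Genes with a mean of at least 1 RPKM were tested on log2(RPKM + 1), which understates changes of low genes, with limma (two-sided, variance trend, Benjamini-Hochberg over all 12523 tested genes, threshold 0.05). Members and lists were chosen with earlier results of these data known. Named members are all those called, a list of core subunits and the pairs of related genes; genes outside the members were Oxct1 and, per list, up to 3 called genes of smallest p. Exon lengths and overlaps came from GENCODE M21 (GRCm38), which matched 60 of 61 members. The test was checked on simulated data. Alternatives changed the pseudocount, filter, scaling, variance model, replicate block and each library.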

Additional observations from a re-analysis of the deposited data

How the results depend on the processing

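All 34 called member genes kept their direction under every alternative that tested them. With no filter on low values limma called 2340 of all genes (1191 higher, 1149 lower) and 21 members (19 lower). Leaving out 1 library gave 1 to 4431 calls over all genes (0 to 2376 higher, 1 to 2055 lower) and 0 to 28 among members (0 to 2 higher, 0 to 26 lower), the lowest without an OXCT1mKO library. Among genes that did not pass, equal RPKM sums without globin turned the sign for Eif1a (0.0666), Eif4a2 (0.091), Eif4g1 (0.023) and Eef2k (0.0146). Eif4h passed with a minimum mean of 5 RPKM and Eif4ebp3 without control 2. Across left-out libraries Eif1a ran from -0.131 to 0.0696, Eef1d ran from -0.000479 to 0.118, Eif4a2 from -0.0966 to 0.0803, Eif5 from -0.0803 to 0.343 and Eef2k from -0.109 to 0.00469. The cause was not tested. With the replicate block 26 members were called, 23 lower and 3 higher, with Eif2s1, Eif2b2, Eif2b3, Eif2b5, Eif3d, Eif5b, Eif1ad and Eef2kmt not called; same-numbered libraries share a number only (correlation of deviations 0.0545). With 2 libraries a group and unknown depth, small differences could not be resolved.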
